A study of Homo sapiens with 12 samples.

Results

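The cytosolic ribosomal protein genes of FDX2-deficient ES2 ovarian cancer cells were examined under 2 oxygen tensions. They were taken by name from the gene table, as protein-coding genes whose GENCODE 29 symbol starts with RPL or RPS and a digit, plus RPLP0, RPLP1, RPLP2 and RPSA, without the RPS6K kinases and RPS19BP1. The rule found 90 of 58735 genes, and no measured value entered it. Of these, 83 had enough counts to be tested (51 RPL genes of the large subunit and 32 RPS genes of the small subunit, of which 6 are paralogs of another member). The 7 others were not tested: the paralogs RPL3L, RPL10L, RPS4Y1 and RPS4Y2 and the readthrough genes RPL17-C18orf32, RPL36A-HNRNPH2 and RPS10-NUDT3, none of which exceeded 3 counts in any library.

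FDX2 is a mitochondrial ferredoxin that passes electrons to the machinery building iron-sulfur clusters. In all 12 libraries the endogenous FDX2 gene had been knocked out by CRISPR in an ES2 line derived by cloning, and an FDX2-HA cDNA resistant to the guide was expressed from a doxycycline-driven TetON promoter, so that cells with doxycycline (+ Doxy) kept FDX2 and cells without it (wo Doxy) lost it. Groups 20% O2 + Doxy and 20% O2 wo Doxy were held 6 days at 20% oxygen, and groups 3% O2 + Doxy and 3% O2 wo Doxy were held 4 days at 20% and then 3 days at 3% oxygen, with 3 biological replicates in each group. FDX2 loss therefore goes together with absence of the drug doxycycline, and 3% oxygen goes together with a longer culture, and neither pair can be told apart here.

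The ribosome reads mRNA with its small subunit and joins amino acids with its large subunit, and each holds 1 copy of most of these proteins around ribosomal RNA. Their mRNAs are among the most abundant of growing cells. Most begin with a C followed by a run of pyrimidines, the terminal oligopyrimidine (TOP) motif, through which mTORC1 and LARP1 are known to control their translation and stability rather than their transcription. A few members have a paralog elsewhere in the genome, such as RPL22L1 for RPL22, whose protein can take the place of the main one, and RPL22 protein is known to bind RPL22L1 RNA. Poly(A) RNA was sequenced, so mRNA levels and not ribosomes or proteins were measured.

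The first transcribed bases of members that the results turn on are printed to show the TOP run beside paralogs that differ in it. The windows hold the 15 bases before and 15 bases from the RefSeq start (GRCh38.p14), 5′ to 3′ on the gene's strand, and the capitals mark a C and at least 4 further C or T bases where such a run opens at the start itself.
RPLP0, chr12:120201097-120201126, minus strand: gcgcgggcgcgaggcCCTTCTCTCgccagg
RPS6, chr9:19380222-19380251, minus strand: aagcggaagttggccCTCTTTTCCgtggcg
RPS3, chr11:75399503-75399532, plus strand: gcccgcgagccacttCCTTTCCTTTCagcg
RPL12, chr9:127451392-127451421, minus strand: ccgcgcgatttccggCCTCTCggctttcgg
RPL22, chr1:6199581-6199610, minus strand: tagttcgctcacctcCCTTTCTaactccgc
RPL22L1, chr3:170870181-170870210, minus strand: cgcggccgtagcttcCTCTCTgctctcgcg
RPL26, chr17:8383179-8383208, minus strand: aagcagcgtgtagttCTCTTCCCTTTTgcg
RPL26L1, chr5:172958714-172958743, plus strand: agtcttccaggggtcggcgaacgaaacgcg
RPS27, chr1:153990747-153990776, plus strand: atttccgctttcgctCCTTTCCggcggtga
RPS27L, chr15:63157463-63157492, minus strand: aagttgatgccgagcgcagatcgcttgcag
RPL4, chr15:66504841-66504870, minus strand: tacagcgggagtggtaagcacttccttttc
RPL22 and RPL22L1 both open with such a run, whereas RPL26 and RPS27 do and their paralogs RPL26L1 and RPS27L do not. The RPL4 window has a pyrimidine stretch a few bases inside the transcript but none at the listed start. Of the 72 members in the RefSeq promoter table, 49 (68.1%) opened with the run, against 1404 of 27305 genes in all (5.14%). Anywhere on the gene's strand in the same 30 bases, a run was found in 64 of the 72 members (88.9%) and in 44.1% of all genes. A match describes letters only, since listed starts are single bases while real starts spread.

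The libraries held 24958386 to 34313637 counts, and 16891 of the 32966 genes with a count were tested. The epithelial keratin genes KRT8 and KRT18, the mesenchymal genes VIM and FN1 and the Müllerian factor gene PAX8 were expressed in every library, while EPCAM, KRT19, WT1, NAPSA and MUC16 had at most 9 counts, and leukocyte, endothelial and red-cell genes (PTPRC, CD3E, PECAM1, VWF, HBB) had at most 6. FDX2 itself had 2 to 13 counts per library, with 70.9% of its exon bases shared with other annotated genes, so its counts give no check of the labels. The libraries differed in how their deviations from the gene means went with the GC content of the transcript over all tested genes. Spearman's rho was above 0.4 in 3 libraries (0.416 in 20% O2 + Doxy replicate 1, 0.455 in 3% O2 + Doxy replicate 3 and 0.53 in 3% O2 wo Doxy replicate 2). The other 3% O2 wo Doxy libraries were positive too (0.105 and 0.233), while all 20% O2 wo Doxy libraries lay at -0.355 to -0.208, so leaving out the 3 does not remove the contrast in GC content between these groups. Counts of called members that move without the 3 libraries are given both ways, while shares of counts and paralog ratios are given for all 12 libraries.

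The members took up several percent of all counts, and their share was higher in 20% O2 wo Doxy and lower in both 3% O2 groups, by amounts that depended on the scaling. In 20% O2 + Doxy the share of counts on the 90 genes was 7.04%, 7.23% and 7.44%, and in 20% O2 wo Doxy 7.87%, 8.15% and 7.75%. In 3% O2 + Doxy it was 6.85%, 6.98% and 6.28%, and in 3% O2 wo Doxy 6.88%, 6.70% and 7.14%. The groups at 20% oxygen did not overlap, the 3 libraries of 20% O2 wo Doxy being the highest of the 12, and those at 3% did overlap. The 3 libraries with a rho above 0.4 for GC content each had the lowest share of their group (7.04%, 6.28% and 6.70%). Differences in share were not computed without them. In bulk RNA, a change in the mix of cells and a change in the RNA of each cell cannot be told apart. The exact (Clopper-Pearson) 95% interval of the highest share was 8.135% to 8.155% and of the lowest 6.272% to 6.288%, which cover counting error only, so the spread between replicates was far wider than the depth sets.

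**Figure D1:**
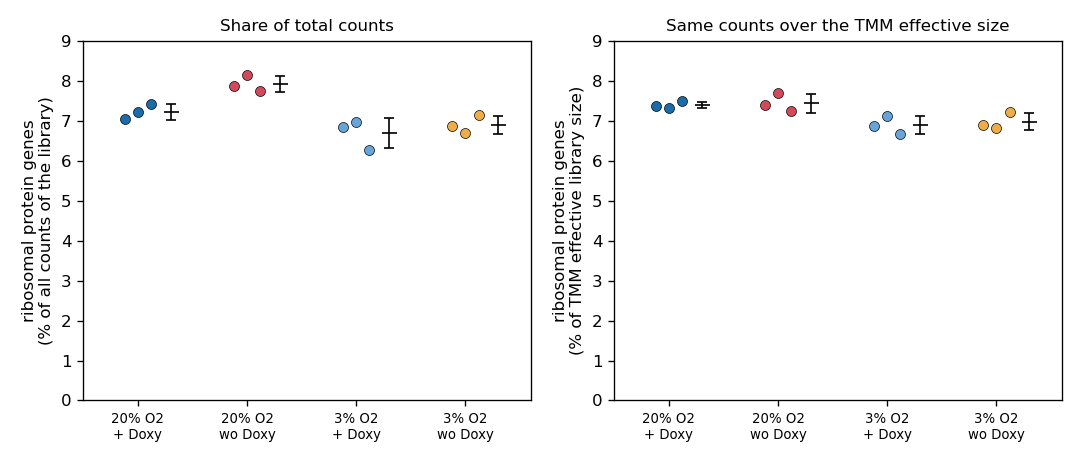
Share of each library's counts on the 90 ribosomal protein genes (vertical axis, percent, from 0) in the 4 groups, on all counts and after scaling the total by TMM. Points are libraries and black dashes with bars the mean ± SD (n = 3). On all counts 20% O2 wo Doxy is highest (7.924 ± 0.201), and after scaling it lies with 20% O2 + Doxy (7.445 ± 0.233 against 7.401 ± 0.0841).

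With FDX2 loss the mean share at 20% oxygen went from 7.23% ± 0.198 to 7.92% ± 0.201 (SD, n = 3), a difference of 0.689 points, and at 3% oxygen from 6.71% ± 0.374 to 6.91% ± 0.225, a difference of 0.200 points. Between oxygen tensions the share was 0.530 points lower at 3% with Doxy and 1.02 points lower without. The exact permutation test (two-sided) gave p = 0.1 for the first and for both oxygen comparisons, which is the smallest that 3 against 3 libraries allow, and p = 0.5 for FDX2 loss at 3% oxygen (0.133 and 0.5 after Benjamini-Hochberg adjustment over the 4). When the totals were scaled by edgeR's TMM factors, which set the bulk of genes equal between libraries, the difference at 20% oxygen was 0.0443 points (exact p = 0.8), and those between oxygen tensions were -0.507 with Doxy and -0.466 points without (exact p = 0.1 each, adjusted 0.2). The TMM factors of 20% O2 wo Doxy were 1.058 to 1.071 and those of the others 0.940 to 0.997. A higher share of counts in 20% O2 wo Doxy thus held for the raw total but not for the scaled one, while the lower share at 3% oxygen held for both. Pseudogenes named after members took 0.155% to 0.198% of counts, and adding them to the members left the difference at 20% oxygen at 0.712 points.

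Levels as counted differed by orders of magnitude between members. Per kilobase of transcript (CPM, a gene's counts relative to its library's scaled total, divided by the median length of the gene's coding transcripts), RPLP0, the base of the large subunit's stalk, was highest at 2995, followed by RPS3, a small-subunit protein at the mRNA entry, at 2795 and RPL7A at 2628. The lowest were RPS10 at 6.18, RPL36A at 12.4 and the paralog RPL39L at 18.2. RPS10 carries a limit, as 39.4% of its exon bases overlap other genes and its pseudogenes held 152% of its own counts, so its level is uncertain. RPL36A had 193 to 300 counts per library, and how the counting treated strand and reads that map to several genes is not given, so its level and its ratio to RPL36AL are uncertain as well. The same limit bears on other low main copies. RPL17, at 61.3, had 35.3% of its exon bases in other genes, and RPL26, at 107.7, had pseudogenes holding 8.89% of its own counts. By CPM, 73 of the 83 tested members exceeded 100 and 26 reached 1000, with a median of 704 against 15.6 for all tested genes. Members were also short, with a median transcript of 695 bases against 1903, and of ordinary GC content (median 49.4% against 48.4%).

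FDX2 loss at 20% oxygen changed single ribosomal protein genes in both directions, and the median of the set lay near that of all genes. By edgeR's quasi-likelihood test (Benjamini-Hochberg adjusted p under 0.05 over all tested genes), 17 of 83 members were called (20.5%), 5 higher and 12 lower, against 35.3% of all tested genes (17.6% higher, 17.7% lower). At an unadjusted p under 0.05 there were 22 members, against 44.6% of all genes. The median log2 fold change of the members was -0.02, beside 0.01 for all genes, and it ran from -0.47 to 0.54, with 76 of the 83 within 0.3 of 0. The changes fell on 12 of 51 large-subunit genes and 5 of 32 small-subunit genes. The replicates of both groups did not overlap for 33 members (39.8%), against 52.3% of all genes. The 3 widest changes were in RPL22, its paralog RPL22L1 and the paralog RPS27L. Whether the members' share of calls differed from that of all genes was not tested. With total counts as the only scaling, which moved the median of all genes from 0.01 to 0.13, 19 members were called, 15 higher and 4 lower, and 9 of them were among the 17. Over all genes, 5964 of 16891 were called in that fit.

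**Figure D2:**
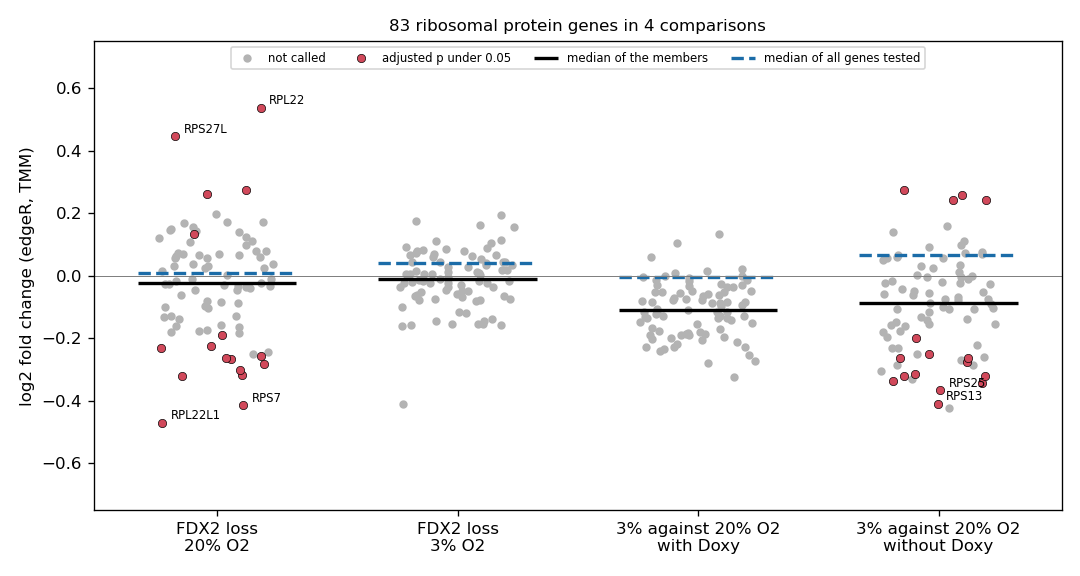
Log2 fold change of each of the 83 tested ribosomal protein genes (one point each) in the comparisons of FDX2 loss and of oxygen tension. Red points passed an adjusted p under 0.05, black lines are the median of the members and dashed blue lines that of all tested genes. Points lie on both sides of 0 for FDX2 loss at 20% oxygen (range -0.47 to 0.54) and mostly below 0 for 3% against 20% oxygen.

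RPL22, a large-subunit protein that cells can do without, showed the largest increase. Its level was 189.8, 214 and 201 CPM in 20% O2 + Doxy and 291, 295 and 293 in 20% O2 wo Doxy, with no overlap (log2 fold change 0.54 ± 0.09 SE, 1.45-fold, edgeR adjusted p = 0.00104). In 3% O2 + Doxy it was 221, 216 and 168 CPM and in 3% O2 wo Doxy 232, 219.5 and 241, a difference of 0.20 that did not pass (adjusted p = 0.231). Its paralog RPL22L1 went the other way. RPL22L1 was at 89.9, 96.4 and 113 CPM in 20% O2 + Doxy and at 69.8, 73.3 and 73.1 in 20% O2 wo Doxy, again with no overlap (-0.47 ± 0.12, 0.722-fold, adjusted p = 0.00881). At 3% oxygen it read 97.1, 99.8 and 79.5 CPM with Doxy and 62.6, 65.3 and 79.8 without, groups that touch at a single library (-0.41 ± 0.12, adjusted p = 0.0565). Scaling by total counts gave -0.35 for RPL22L1 at 20% oxygen with an adjusted p of 0.0525, while the RPL22 call held under all 20 alternatives tried.

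RPS27L, a paralog of RPS27 known as a target of p53, was the other large increase. It read 72.2, 78.5 and 90.6 CPM in 20% O2 + Doxy and 110.2, 110.3 and 108 in 20% O2 wo Doxy (0.45 ± 0.15, adjusted p = 0.0336). The 3 libraries without Doxy lay close together above all 3 with Doxy, but the call held under only 14 of 20 alternatives and was lost when any 1 of 5 libraries was left out, all 3 without Doxy among them (0.36 without 20% O2 + Doxy replicate 1, adjusted p = 0.132). RPL4, a long-tailed protein of the exit tunnel, was at 2079, 2172 and 2188 CPM with Doxy and 2568, 2678 and 2533 without (0.27 ± 0.04, adjusted p = 0.00034). RPL23A (0.26 ± 0.06) and RPL12, a stalk-base protein (0.13 ± 0.04), were also called higher. The RPL12 call was lost without any 1 of 5 libraries, all but 20% O2 + Doxy replicate 2 (0.09 to 0.15, adjusted p up to 0.195 in edgeR). The RPL4 call held under all 20 alternatives.

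Among the 12 lower members, RPS7, a small-subunit protein known also to bind MDM2, fell most after RPL22L1. The gene (chr2:3575205-3580920, GRCh38, plus strand) read 500.4, 523 and 549 CPM in 20% O2 + Doxy and 383, 410.1 and 386 in 20% O2 wo Doxy (-0.41 ± 0.07, 0.750-fold, adjusted p = 0.000806). RPL26L1, the near-identical paralog of RPL26, read 65.2, 67.4 and 67.2 CPM with Doxy and 57.5, 52.9 and 49.7 without (-0.32 ± 0.06, adjusted p = 0.00227). RPL10A followed at 682, 687 and 672 CPM with Doxy and 549, 558 and 530.3 without (-0.32 ± 0.04, adjusted p = 0.000237). All 3 separated the groups in every library, and the calls of RPS7 and RPL26L1 held under all 20 alternatives. Others among them were RPL8 (-0.28), RPS9 (-0.27), RPS15 (-0.26), RPL35 (-0.26), the paralogs RPL39L (-0.23) and RPL7L1 (-0.23), and RPL18 (-0.19). The calls of RPL39L and RPL18 were lost without 20% O2 + Doxy replicate 1 or 20% O2 wo Doxy replicate 1 or 3, and also without 20% O2 + Doxy replicate 3 for RPL39L and replicate 2 for RPL18 (RPL39L -0.30 to -0.18, RPL18 -0.25 to -0.12). Of these, RPS9, RPS15, RPL35, RPL18 and RPL8 have transcripts of 57.9% to 62.1% GC, and these 5 together with RPL10A (55.5% GC) were no longer called when each library's trend with GC content was taken out, under which 19 members were called, 12 higher and 7 lower. Leaving out the 3 libraries most tied to GC content gave 25 called members, 6 higher and 19 lower, 15 of them among the 17. Calls over all genes rose too, from 35.3% to 7897 of 16891 with the GC trends taken out and 7296 of 17173 without the 3 libraries.

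**Figure D3:**
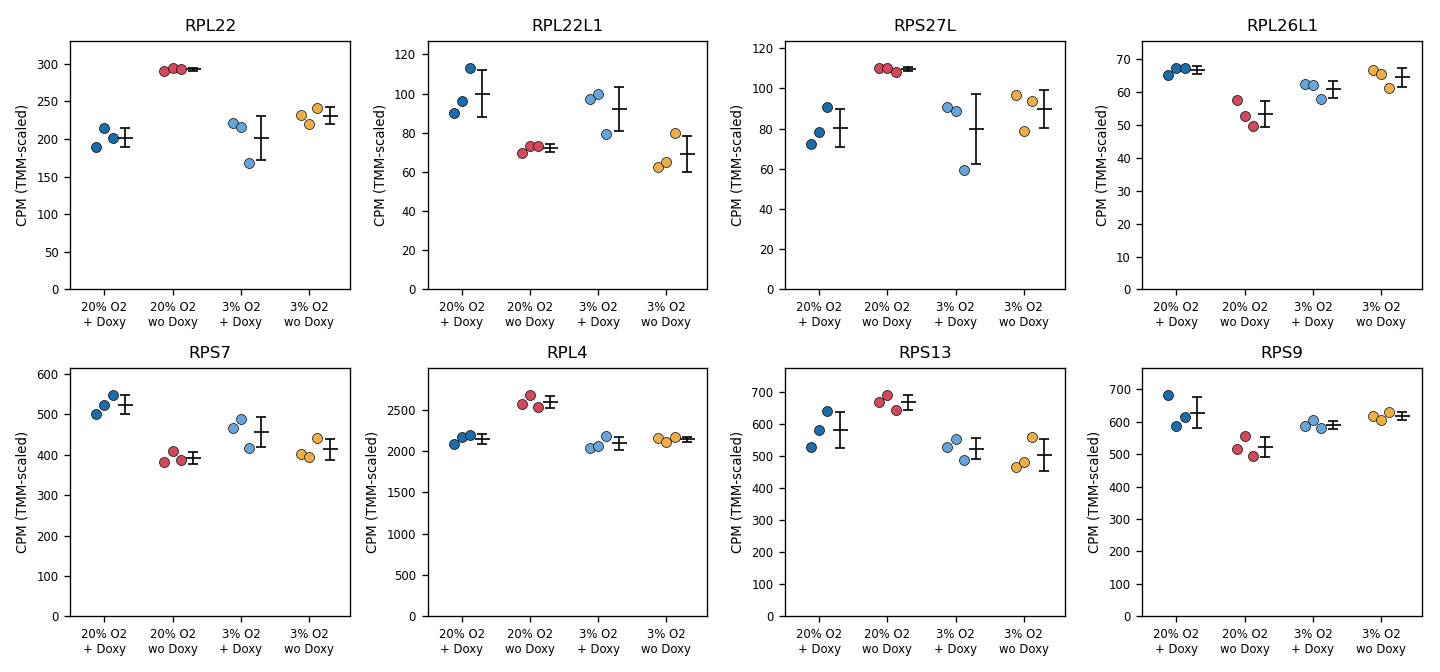
CPM (vertical axes, linear) of RPL22, RPL22L1, RPS27L, RPL26L1, RPS7, RPL4, RPS13 and RPS9 in each library of the 4 groups. Points are libraries and black dashes with bars the mean ± SD (n = 3). RPL22 and RPL22L1 part in opposite directions between 20% O2 + Doxy and 20% O2 wo Doxy.

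None of the fixed members with a role of their own passed the main test at 20% oxygen. RPL10 read 1755, 1626 and 1566 CPM with Doxy and 1430, 1532 and 1425 without. It was called when the 20% oxygen libraries were fitted alone, with or without the replicate block. RPLP0 read 3159, 2991 and 2841 CPM with Doxy and 3053, 3197 and 2981 without at 20% oxygen, overlapping groups with a log2 fold change of 0.04 ± 0.05. RPLP1 (0.03), RPLP2 (0.02), RPS4X (0.08), RPL41, the smallest of the proteins (0.04), RPSA, also a laminin receptor (-0.04), and RPS3 (-0.10) had small values too. RPL5 (0.10) and RPL11 (0.12), which bind MDM2 together with ribosomal RNA, were not called either. RPS6, the protein that S6 kinase phosphorylates, was at 0.13 ± 0.05 (adjusted p = 0.0843). RPLP0, RPS4X and RPS6 passed when total counts were the only scaling (0.16, 0.20 and 0.25). RPLP0 and RPS6 also passed with the GC correction, and RPS6 with the length correction, so these calls follow the processing. The values of RPLP0, RPLP1, RPLP2, RPL41, RPSA and RPS3 changed sign under at least 1 alternative, RPSA to 0.09 and RPS3 to 0.03 with total counts alone.

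FDX2 loss at 3% oxygen gave no called member by edgeR's test, against 7.31% of all tested genes (4.2% higher, 3.11% lower). At an unadjusted p under 0.05 there were 6, against 23.1% of all genes, and DESeq2's Wald test called 5, all lower: RPL22L1, RPL10A, RPL28, RPL35 and RPL7L1. Over all genes the Wald test called 1943 of the 32966 with a count. The median log2 fold change of members was -0.01 beside 0.04 for all genes, the range -0.41 to 0.20, and 82 of 83 lay within 0.3 of 0. RPL22L1 was the exception. RPL10A, in this comparison 662, 677 and 628 CPM with Doxy and 584, 573 and 611 without, separated the groups at -0.15 ± 0.04 (edgeR adjusted p = 0.0576). The groups were apart for 8 members (9.64%), against 24.6% of all genes. RPS7, at 467, 488 and 416 CPM with Doxy and 402, 396 and 443 without, overlapped (-0.14, adjusted p = 0.23). When the 3 libraries most tied to GC content were left out, 5 members were called, RPL22L1, RPL10A, RPS7 and RPS15A lower and RPS2 higher. Over all genes, 2610 of 17173 were called in that fit.

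Between oxygen tensions with FDX2 kept, no member was called, against 2.02% of all genes (1.63% higher, 0.385% lower). There were 13 at an unadjusted p under 0.05, against 13.0% of all genes, and DESeq2's Wald test called 2 (RPL9 and RPSA, lower). Over all genes the Wald test called 600 of the 32966 with a count. The set leaned to one side. Of 83 members, 77 had a log2 fold change below 0, where 8631 of 16891 genes did, and the median was -0.11 (range -0.32 to 0.13) against 0.00 for all genes. Without the 3 libraries most tied to GC content, 67 lay below 0 and the median was -0.0882, against -0.00838 for all genes. With 1 library left out, the members' median ran from -0.142 (without 3% O2 + Doxy replicate 2) to -0.0751. The latter came without 3% O2 + Doxy replicate 3, with 65 members below 0 and -0.0179 for all genes. The 78 mitochondrial ribosomal protein genes had a median of -0.10 in this comparison, close to that of the members. The pooled SD between replicates of the members' median in a library was 0.0552, and members of one ribosome do not vary independently, so the count of signs carries no test. RPSA read 2086, 1996 and 2008 CPM at 20% oxygen and 1831, 1864 and 1852 at 3%, without overlap (-0.13 ± 0.03, edgeR adjusted p = 0.0858). RPL9 read 1582, 1712 and 1783 CPM against 1442, 1536 and 1355, also without overlap (-0.23 ± 0.06, adjusted p = 0.0947). Groups were apart for 15 members (18.1%, all lower at 3%), against 15.4% of genes in all.

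Without Doxy, 16 of 83 members (19.3%) were called between oxygen tensions, 12 lower and 4 higher at 3%, against 25.8% of all tested genes (11.9% lower, 13.9% higher). At an unadjusted p under 0.05 there were 27, against 39.0% of all genes, and the groups were apart for 34 members (41.0%), against 49.4%. The median log2 fold change was -0.09 where that of all genes was 0.07, and 61 of 83 members lay below 0. Of the 16, 8 were among the 32 tested small-subunit genes and 8 among the 51 of the large subunit. RPS13 (chr11:17074389-17077787, minus strand), a small-subunit protein, read 668, 692 and 646 CPM in 20% O2 wo Doxy and 466, 483 and 560.5 in 3% O2 wo Doxy (-0.41 ± 0.08, 0.753-fold, adjusted p = 0.0057). RPS25, which is not needed for general translation but for some internal initiation, read 629.9, 669 and 632 CPM against 438, 491 and 568 (-0.37 ± 0.09, adjusted p = 0.0117). Both calls held under all 20 alternatives, and in both genes every library at 3% lay below every library at 20%. In these cells RPL22 was also lower at 3% (-0.34 ± 0.09, adjusted p = 0.0197), a call lost without any 1 of the 20% O2 wo Doxy libraries or without 3% O2 wo Doxy replicate 2 (-0.36 to -0.31).

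The further lower members were RPS18 (-0.34), RPL21 (-0.32), RPS27A (-0.32), RPL9 (-0.31), RPL4 (-0.28), RPS6 (-0.26 ± 0.05, adjusted p = 0.00431), RPS3A (-0.26), RPL23A (-0.25) and RPL12 (-0.20). RPS27A encodes a ubiquitin fused to a ribosomal protein. RPS27 had the widest difference, with 524, 545 and 484 CPM at 20% and 319, 361 and 476 at 3%, but did not pass (-0.42 ± 0.15, adjusted p = 0.0635). RPL11, at -0.31, missed the threshold as well (adjusted p = 0.0578), but was called without the 3 libraries most tied to GC content. The 4 higher members included RPL26L1 (0.27 ± 0.06, adjusted p = 0.00935), RPL8 (0.24 ± 0.07) and RPS9 (0.24 ± 0.06). RPS9 read 517, 555 and 495 CPM in 20% O2 wo Doxy and 618, 604 and 630.0 in 3% O2 wo Doxy, and RPL8 read 1527, 1614 and 1532 against 1854, 1861 and 1809. Both rose without overlap, and both are GC-rich (58.2% and 61.0%). Taking out each library's GC trend brought RPL8 to -0.06 (adjusted p = 0.654), and neither gene was called. That correction left 27 calls, 25 of them lower, and gave 5758 calls among all 16891 genes. Deviations of same-numbered replicates went together in this pair of groups, and with the replicate number as a block 13 members were called, with RPL8 and RPS27A among those that lost the call, whereas a block fitted to these 6 libraries alone, chosen after the data were seen, called 21, the 16 among them. Over all genes the 2 block fits called 3203 of 16891 and 5081 of 16357. With total counts as the only scaling, 27 were called, all lower, and 12 of them were among the 16. Without the 3 libraries most tied to GC content 25 were called, the 16 among them. Over all genes these 2 fits called 4673 of 16891 and 5745 of 17173. Leaving out 20% O2 wo Doxy replicate 1, 2 or 3 reduced the calls to 10, 10 and 9. Over all genes the calls in these fits were 2697 of 17236, 2694 of 17254 and 2321 of 17307.

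**Figure D4:**
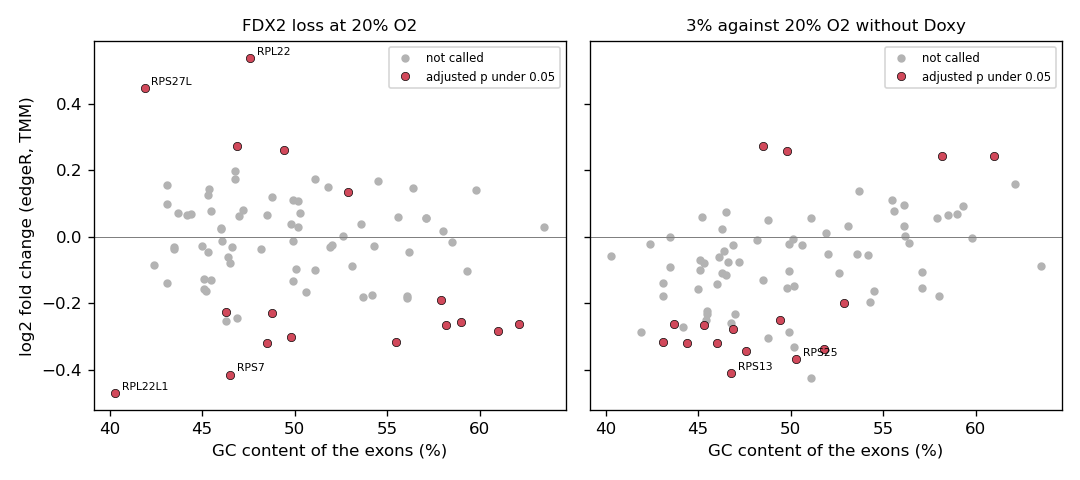
Log2 fold change of the 83 tested ribosomal protein genes (vertical axis) against transcript GC content (horizontal axis, percent), for FDX2 loss at 20% oxygen and for 3% against 20% oxygen without Doxy. Each point is a gene, red where the adjusted p was under 0.05. The cloud is nearly flat in the first (Spearman's rho -0.121) and climbs with GC content in the second (0.406).

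Fold changes of members went with GC content in the oxygen comparisons. Across the 83 members, Spearman's rho with transcript GC content was 0.414 with Doxy and 0.406 without Doxy for 3% against 20% oxygen, beside 0.129 and 0.433 over all genes. For FDX2 loss rho was -0.121 at 20% oxygen and 0.06 at 3%, beside -0.183 and 0.214 over all genes. With the mean level, members gave 0.306 for FDX2 loss at 20% oxygen and 0.395 at 3%, where all genes gave -0.338 and -0.387. Genes share libraries and are not independent, so these describe the fold changes and have no test.

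The comparison of FDX2 loss at 20% oxygen and that of oxygen without Doxy share the 20% O2 wo Doxy libraries, so their values are only set side by side. RPL22 had 0.54 in the first and -0.34 in the second, RPL4 0.27 and -0.28, RPL23A 0.26 and -0.25, and RPL12 0.13 and -0.20. RPL26L1 had -0.32 and 0.27, RPL8 -0.28 and 0.24, and RPS9 -0.27 and 0.24. In each of these genes the 20% O2 wo Doxy libraries lay apart from both groups that they were compared with. The genes were chosen as called in both comparisons, so this follows largely from the choice. Over all tested genes, groups were apart for 52.3% in the first and 49.4% in the second.

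Whether the response to FDX2 loss differed between oxygen tensions was tested as an interaction, and 4 of 83 members (4.82%) passed, 2 upwards and 2 downwards, against 7.29% of all tested genes (3.21% upwards, 4.08% downwards). At an unadjusted p under 0.05 there were 12, against 23.4%. RPL26L1, which fell at 20% oxygen and read 62.3, 62.2 and 57.9 CPM with Doxy and 66.6, 65.5 and 61.2 without at 3%, had the largest difference (0.40 ± 0.09, adjusted p = 0.0204). RPS9 differed by 0.33 ± 0.09 (adjusted p = 0.0412), with 586, 604 and 581 CPM against 618, 604 and 630.0 at 3% oxygen. RPL4 differed by -0.24 ± 0.06 (adjusted p = 0.0278), reading 2034, 2058 and 2183 CPM with Doxy and 2154, 2108 and 2162 without at 3%. RPL12 differed by -0.21 ± 0.06 (adjusted p = 0.0461). In all 4 the change at 20% oxygen was the one called. For RPL22 the difference of -0.34 did not pass in the main fit (adjusted p = 0.141). RPL22 was called for the difference without the 3 libraries most tied to GC content, and without 3% O2 + Doxy replicate 3. Over all genes these fits called 2568 of 17173 and 2191 of 17306. Whether its response was smaller at 3% oxygen thus depended on the libraries used. RPL26L1 alone remained called with the replicate number as a block.

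Paralog and main copy can be compared within a library, where scaling cancels. The log2 ratio of RPL22L1 to RPL22 counts was -1.08, -1.15 and -0.83 in 20% O2 + Doxy and -2.06, -2.01 and -2.00 in 20% O2 wo Doxy. At 3% oxygen it was -1.19, -1.12 and -1.08 with Doxy and -1.89, -1.75 and -1.60 without. Every library without Doxy had a lower ratio than every library with Doxy, at both oxygen tensions. The mean difference was -1.0 at 20% oxygen (ratio 0.5-fold) and -0.62 at 3% (0.652-fold), each with the exact permutation p of 0.1, the smallest possible (two-sided, 0.267 after Benjamini-Hochberg adjustment over 24 tests). With FDX2 kept, the ratio differed by -0.11 between oxygen tensions (exact p = 0.4), and without FDX2 by 0.28 (exact p = 0.1). Adding the counts of pseudogenes to each copy gave -0.96 and -0.60 for FDX2 loss. With 1 library left out it stayed between -1.07 and -0.91 at 20% oxygen and between -0.69 and -0.55 at 3%.

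Of 10 paralogs, 6 had enough counts for a ratio, and 9 of 24 tests gave groups without overlap. For FDX2 loss at 20% oxygen the ratio of RPS27L to RPS27 differed by 0.27, RPL39L to RPL39 by -0.31, RPL7L1 to RPL7 by -0.19 and RPL26L1 to RPL26 by -0.16, all without overlap (exact permutation p = 0.1 for each). RPL36AL to RPL36A differed by -0.05 with overlap (exact p = 0.8). At 3% oxygen none of these 5 separated the groups with FDX2 from those without. Reads shared between near-identical copies such as RPL26 and RPL26L1 could be split by the counting, so those ratios are less certain than that of RPL22L1 to RPL22.

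Members that opened with the TOP run were called in 6 of 47 cases (12.8%) for FDX2 loss at 20% oxygen and those in the table without it in 7 of 20 (35.0%), beside 35.3% of all tested genes. The values for oxygen without Doxy were 10 of 47 (21.3%) and 3 of 20 (15%), beside 25.8%. These counts rest on the listed starts and were not tested. The group without the run holds the paralogs RPL26L1, RPS27L, RPL7L1 and RPL36AL. For FDX2 loss at 20% oxygen, paralogs were called in 5 of 6 cases (83.3%) and other members in 12 of 77 (15.6%). The median SE there was 0.0815 with the run and 0.062 without. The 2 groups by run thus differ in more than the run.

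Other genes of the ribosome and its making were taken by list and set beside the members without a test of the difference. For FDX2 loss at 20% oxygen, RACK1, a scaffold bound to the small subunit, fell (-0.22), and FAU (0.09) did not pass. Of 16 other genes known for TOP mRNAs, 4 rose and 4 fell (50% called, beside 35.3% of all tested genes; median -0.07), among them TPT1 (0.38 ± 0.07) and EIF3L (0.28 ± 0.06) upwards and the RNA-binding protein gene HNRNPA1 (-0.62 ± 0.08) and the nucleolar chaperone gene NPM1 (-0.55 ± 0.06) downwards. Of 22 ribosome assembly and ribosomal RNA factors, 14 fell and 1 rose (68.2% called), with a median of -0.33 beside -0.02 for the members. BOP1 (-0.69 ± 0.18) and RRS1 (-0.56 ± 0.17), both needed for the large subunit, NOP56 (-0.65 ± 0.06), which guides RNA methylation, and the nucleolar protein gene NCL (-0.61 ± 0.05) were the widest. BOP1 and RRS1 varied widely in 20% O2 + Doxy (221.8 ± 58.5 and 109.3 ± 25.3 CPM, SD). Alternatives and left-out libraries are given for members only. Of 78 mitochondrial ribosomal protein genes 26 were called, 33.3% and so close to the share of all genes (7 higher, 19 lower; median -0.10). At 3% oxygen 3 of the 22 assembly factors fell (NOP58, NCL and POLR1B) with a median of -0.14, 3 of the 78 mitochondrial ribosomal protein genes were called, and none of the TOP list, nor FAU or RACK1. The assembly factors were thus called at 13.6% and the mitochondrial genes at 3.85%, beside 7.31% of all tested genes.

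Of 18 tested genes that control ribosomal protein mRNAs or growth, 3 rose and 6 fell with FDX2 loss at 20% oxygen. The share called was 50%, beside 35.3% of all tested genes. DDIT4 and SESN2, both known inhibitors of mTORC1, rose by 2.01 ± 0.14 and 1.74 ± 0.19, the MYC antagonist gene MXD1 rose by 0.97 ± 0.08, and LARP1, which binds the TOP motif, changed by -0.48 ± 0.06, while MYC was at -0.10 ± 0.14 (adjusted p = 0.628, all from edgeR). At 3% oxygen 2 of the 18 were called (11.1%, beside 7.31% of all tested genes), LARP1 (-0.24 ± 0.06) and MDM2 (-0.30 ± 0.08), both lower. MDM2 was also among the 6 that fell at 20% oxygen (-0.35 ± 0.08). DDIT4 rose with 3% oxygen whether FDX2 was kept (2.71) or lost (0.97). In the oxygen comparison without Doxy, 8 of the 16 TOP genes (3 higher, 5 lower) and 8 of the 22 assembly factors (5 higher, 3 lower) were called, with TPT1 at -0.33 and HNRNPA1 at 0.40. These were 50% and 36.4%, beside 25.8% of all tested genes. With Doxy, none of the TOP list or of the assembly factors passed between oxygen tensions, beside 2.02% of all tested genes. In the test of the difference between FDX2-loss responses, 2 of 16 TOP genes (HNRNPA1 0.46, NPM1 0.42), 4 of 22 assembly factors and 3 of 18 control genes passed. The shares were 12.5%, 18.2% and 16.7%, beside 7.29% of all tested genes. The part of these genes in the members' values was not tested.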

How the data were processed

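Counts per gene were used as the authors deposited them, 1 column per library, raw and not pooled. The submitters' processing notes name STAR, featureCounts, DESeq2 and GRCh38; versions, strand setting and the handling of multi-mapping reads are not given in the sources used here. The design text says that 1 paired read file of 20% O2 + Doxy replicates 1 and 2 was lost, while their counts are in the table. All gene identifiers are in GENCODE 29, which gave symbols, lengths, GC content and exon overlaps; start sequences came from RefSeq (GRCh38.p14).

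Genes passed filterByExpr (minimum count 10, minimum total 15) in edgeR 4.0.16 (R 4.3.3), and 4 condition means were fitted to all 12 libraries (TMM scaling, 8 residual degrees of freedom, common biological coefficient of variation 16.3%). Benjamini-Hochberg adjustment ran over the 16891 tested genes. CPM values are relative to the scaled totals. The script was tested on simulated data. Shares and paralog ratios were compared by exact permutation of libraries (SciPy 1.17.1). The members, lists and rules for named genes (per comparison, the 3 largest called increases and decreases without overlap, fixed members with a role of their own, paralogs, and the 3 highest and lowest per length) were chosen with earlier results of these data known; RPL10A, RPL9, RPS15A, RPL28 and the called members given by their fold change alone were named after their values were seen.

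Alternatives were DESeq2 (1.42.0; size factors and Wald test), no filter, corrections for GC content and length (lowess, span 0.3), fits to the compared libraries alone, a replicate block, and each library left out. Scaling by total counts, leaving out libraries with a GC correlation above 0.4, and a block within the compared libraries were added after the data were seen. Same-numbered libraries deviated together in every pair only between 20% O2 wo Doxy and 3% O2 wo Doxy (correlations 0.247 to 0.363, differently numbered -0.432 to 0.0756). The labels name no shared batch. The main fit, which gave the reported calls and adjusted p-values, held no pairing, and replicate number entered only as a block in alternatives. Some genes are not reported here by name. In every pair of replicates, the mean chi-square over genes was above the 1 per degree of freedom that sampling noise gives (2.61 to 42.1).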

Additional observations from a re-analysis of the deposited data

Results flagged for a closer look

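The 4 members whose response to FDX2 loss differed between oxygen tensions by edgeR's test of the difference were RPL26L1 (0.403 on the log2 scale), RPS9 (0.3305), RPL12 (-0.2078) and RPL4 (-0.239), each called at 20% oxygen and not at 3%. Of 24 alternatives, 18 kept the call for RPL26L1, 14 for RPL4 and 9 each for RPL12 and RPS9. RPS9, of 58.2% GC, had a difference of 0.111 after correction for GC content (adjusted p = 0.634). RPL26L1 was not called with total counts as the only scaling (0.305, adjusted p = 0.0909).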

How the results depend on the processing

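Of named members that were called, or became so, 1 changed direction, RPL8 in oxygen without Doxy (-0.0581 with the GC correction and -0.0585 with the replicate block and that correction). At an adjusted p under 0.01, 11 members were called for FDX2 loss at 20% oxygen, 8 for oxygen without Doxy and 0 for the difference. The calls over all genes at that threshold are not given, so these counts cannot be set against them. For the same 3 comparisons in turn, total counts alone moved the members' median to 0.0998, -0.193 (27 called) and -0.0737. Relative to all genes the median differed little (-0.0319 against -0.0324 for FDX2 loss at 20% oxygen). The GC correction moved these medians to 0.032, -0.166 (27 called) and -0.0406, and with the replicate block to 0.033, -0.165 and -0.0425. For FDX2 loss at 3% oxygen, where none was called, the GC correction gave 3 (2 with the block), the length correction 2 (1 with the block), DESeq2's size factors 2, no filter 1, DESeq2's Wald test 5 and leaving out the 3 libraries most tied to GC content 5. Calls over all genes moved too, to 3306 of 16891 with the GC correction and 2610 of 17173 without those libraries. For oxygen with Doxy the GC correction gave 3 with and without the block, the Wald test 2 and leaving out those libraries 1. For oxygen without Doxy, the compared libraries alone gave 25, and leaving out the 3 libraries most tied to GC content 25. Over all genes these fits called 5589 of 16357 and 5745 of 17173. For the difference, no filter gave 1, the replicate block 1, the block with the length correction 2 and leaving out those libraries 7. Over all genes these fits called 672 of 32966, 615 of 16891, 638 of 16891 and 2568 of 17173. The cause was not tested.

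With 1 library left out, calls ran from 13 to 16, 0 to 2 (2 without 3% O2 + Doxy replicate 3, 1 without 3% O2 wo Doxy replicate 3), 0 and 9 to 20 in the 4 comparisons of groups, and from 0 to 6 for the difference, with a median of -0.0468 to 0.045. None were called for the difference without 20% O2 wo Doxy replicate 3, 3% O2 + Doxy replicate 2 or 3% O2 wo Doxy replicate 2, and 1 or 2 without each of the others except 20% O2 + Doxy replicate 3 and 3% O2 + Doxy replicate 3. Calls over all genes in these fits ran from 4423 to 5575, 581 to 1605, 190 to 388 and 2321 to 4200. For the difference they ran from 520 to 2191. For FDX2 loss at 20% oxygen the replicate block gave 14 calls, all among the 17, and the replicate numbers showed no pairing there. Of results on single members, 1106 alternatives left the call as it was, 47 gained and 101 lost a call and 2 reversed one; in 63 alternatives an uncalled member changed sign. Depth limits RPS10 (84 to 149 counts per library) and RPL36A (193 to 300) most.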
